A study of Mus musculus with 81 samples.

Results

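P4 germline cells of F3 male fetuses were compared between the lineage of F0 dams exposed to tributyltin (TBT) and the lineage of F0 dams given the vehicle DMSO, by the RNA that was counted at long terminal repeat (LTR) loci. All F3 P4 libraries were used, 5 of the TBT group (TBT-F3) and 4 of the DMSO group (DMSO-F3), which made 9 of the 81 libraries of the series. In both groups the mice carried the OG2 transgene, in which regulatory DNA of Pou5f1 drives EGFP in germ cells, and the fetuses were taken at E18.5. TBT was supplied at 50 nM in the drinking water of the F0 dams from a week before mating until their pups were weaned. That exposure reached the dams and the F1 offspring with their germ cells, and the F3 fetuses had none of their own. Cells of dissociated testes were sorted by FACS, and the EGFP-positive cells were split by side scatter into P4 and P5, while P6 is the EGFP-negative somatic population. The P4 gate therefore rests on EGFP and on the granularity of the cells, and not on a marker of developmental stage. Neither the labels nor the methods say how many testes or litters went into a germline library, so p-values measure only the spread between these samples.

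LTR retrotransposons, here called mouse endogenous retroviruses (mERVs), are remnants of retroviral insertions that are present as internal sequences with the suffix -int and as flanking LTRs with promoter and polyadenylation activity. In fetal male germ cells, DNA methylation is erased and then rebuilt before birth, and in this window transposons are held down by the piRNA pathway, in which PIWI proteins and tudor domain proteins use small RNAs to cleave transposon transcripts and to direct DNA methylation to their promoters. TBT is an organotin that activates the nuclear receptors RXR and PPARγ. The table held 970384 LTR loci of 680 species, a species being the repeat name given by RepeatMasker. Of these loci, 276610 had a read in at least 1 P4 library and 16043 had a read in all 9. The deposited values are CPM, that is counts per 1000000, after TMM scaling. Because each value was a whole multiple of the value of 1 read in its library, reads are given below beside CPM, in the order DMSO 1, 2, 3 and 4 and TBT 5, 6, 7, 8 and 9.

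Before the groups were compared, TBT 5 and TBT 9 stood apart from the other 7 libraries. The DMSO libraries held 4896693, 2755294, 4897690 and 5476368 LTR reads, and TBT 5 to 9 held 833449, 7216887, 5539303, 5502709 and 1187234. TBT 5 and TBT 9 were the libraries of fewest reads. Their deposited CPM also summed to less, at 564416 and 806658, against 1196980 to 1383740 in the other 7. Low CPM in these 2 libraries are to be read against these sums. Of the 86412 loci that entered the test, 69.2% had no read in TBT 5 and 54.9% had none in TBT 9, against 3.36% to 19.2% in the other 7. The gap was also present at equal depth. Thinned to the same 833449 reads, the DMSO libraries would show 81189, 90339.9, 78830.4 and 104146 loci with a read, TBT 6 to 8 would show 111707, 104688 and 111523, and TBT 5 and TBT 9 would show 33040 and 51469. TBT 5 and TBT 9 thus held reads at the fewest loci, while TBT 6, 7 and 8 held reads at more loci than any DMSO library. With all 9 libraries the difference in this count between the groups lay within their spread (two-sided exact permutation test, p = 0.746). Without TBT 5 and TBT 9 the exact permutation test gave p = 0.0571, the smallest p that 3 against 4 libraries allow. That p cannot decide whether the groups differ, because these 2 libraries were set apart partly by their low values of this same count. Among the other 7, TBT 7 at 104688 loci lay close to DMSO 4 at 104146. The share of reads at loci outside genes was 11.4% (95% Wilson interval 11.3 to 11.5) in TBT 5 and 12.1% (12.1 to 12.2) in TBT 9, and 2.05% to 5.10% in the others. Reads had no molecular identifiers, so intervals and lower limits given here cover counting error only. The main counts and medians below are therefore given with and without these 2 libraries, and so are the values of most named loci, species and genes.

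**Figure D1:**
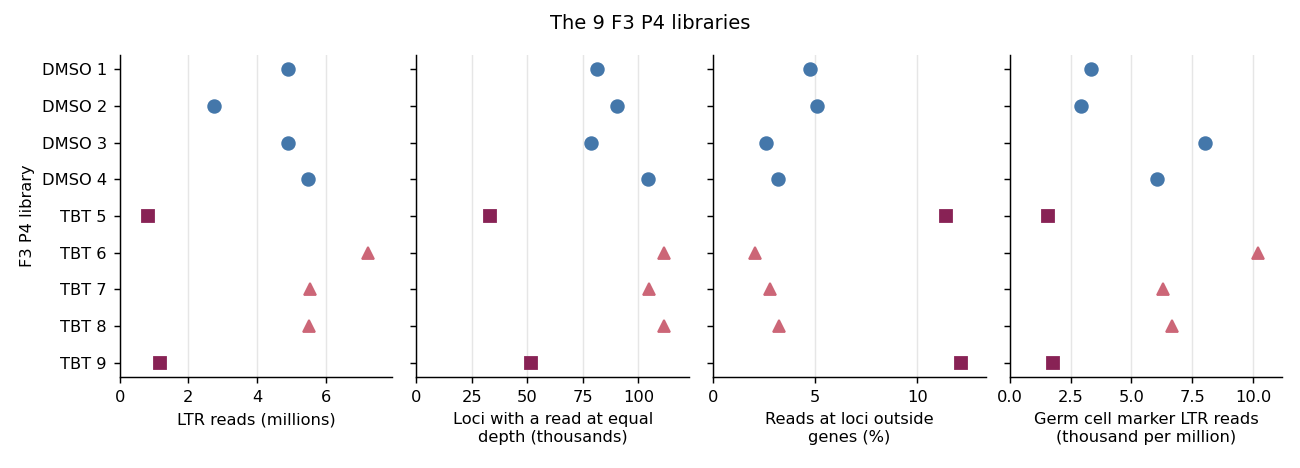
Each row is 1 F3 P4 library (circles, DMSO; triangles, TBT 6, 7 and 8; squares, TBT 5 and 9), plotted by its LTR reads, the loci with a read when thinned to 833449 reads, the percent of reads at loci outside genes, and the reads at LTR loci inside germ cell marker genes per 1000000 LTR reads, on linear axes with the units printed under each panel. TBT 5 and TBT 9 are the lowest in reads, in loci at equal depth and in germ cell marker reads, and the highest in the share outside genes, at 11.4% and 12.1%.

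The P4 label was checked against marker genes, which this table reads only through the LTR loci inside them. All 7 libraries other than TBT 5 and TBT 9 had germ cell marker reads at 2937 to 10184 per 1000000 LTR reads, TBT 5 and TBT 9 at 1586 to 1774, and the somatic P6 libraries at 9.34 to 148. Sertoli cell markers reached at most 24.0 per 1000000 in P4 cells and were at 0 in TBT 5 and TBT 9, against 915 to 1286 in P6. Of 8 germ cell markers 6 had reads in each of the 7 libraries and 5 or 6 in TBT 5 and TBT 9, and of 8 Sertoli cell markers 1 to 6 had reads in the 7 libraries. Leydig cell markers lay at 96.8 to 245 per 1000000 in the 7 libraries and at 0 to 16.8 in TBT 5 and TBT 9, against 765 to 1078 in P6. The P4 median of Scarb1 among them was 154, against 4.72, 0 and 2.90 for Cyp11a1, Cyp17a1 and Lhcgr. DMSO 1 differed, with 188 reads in Scarb1 and 100, 66 and 120 in Cyp11a1, Cyp17a1 and Lhcgr. Star, Hsd3b1 and Insl3 had no read at an LTR locus. Markers of peritubular cells reached at most 49.2 per 1000000 in the 7 libraries and stood at 42.0 and 91.0 in TBT 5 and TBT 9, against 2275 to 3917 in P6. Endothelial markers lay at 2.86 to 70.2 in the 7 libraries and at 0 in TBT 5 and TBT 9, against 94.3 to 161 in P6. Macrophage and blood markers lay at 5.51 to 33.9 in the 7 libraries and at 0 to 11.8 in TBT 5 and TBT 9, against 36.4 to 64.1 in P6. The 9 libraries thus held more germ cell marker reads and fewer Sertoli, Leydig and peritubular marker reads than any P6 library, whereas the highest P4 values of endothelial and of macrophage and blood markers came close to the lowest P6 values. Germ cell marker reads were lowest in TBT 5 and TBT 9. Of the germ cell markers, Dppa4 and Sall4 had no read at an LTR locus and could not be used. The part of cell content in the results below was not tested, and in bulk samples fewer cells of a type and less RNA per cell cannot be told apart.

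Most P4 reads lay inside genes, and there neighbouring loci were not separate measurements. Of the 86412 tested loci, 40781 (47.2%) had exactly the read counts of the locus before them in all 9 libraries, and the longest such run, in Tmem163, spanned 54 loci. Where 2 neighbouring loci lay in introns of 1 gene with no annotated exon between them, 37125 of 45881 pairs (80.9%) were identical, and where an exon lay between them 1457 of 15581 pairs (9.35%) were. The 5 loci of the highest mean were all in introns of Sub1, a transcriptional coactivator gene on chromosome 15. A pair of MTEb loci there, chr15:11985744-11985965 and chr15:11985979-11986043, held the same 10818, 6223, 7124 and 7038 reads in DMSO 1 to 4 and 2874, 6208, 7005, 7166 and 3813 in TBT 5 to 9. An MT2B fragment of only 13 bases in an intron of Erh, chr12:80638932-80638944, held 3163, 1590, 2131 and 2144 reads in DMSO 1 to 4 and 471, 1918, 1922, 1932 and 478 in TBT 5 to 9. Its whole sequence is printed to show how short a locus with reads at this level can be.

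MT2B in Erh: agtaacttttaaa

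For loci inside genes, this table does not separate transcripts of the repeat from those of the gene around it. The table gives no strand either. Values at such loci are therefore described as reads at the locus and not as transcripts of the element.

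No LTR locus differed between TBT-F3 and DMSO-F3 P4 cells at an FDR of 0.05 when all 9 libraries were tested with limma on log2(CPM + 1 unit), where 1 unit is 0.246 CPM, about the value of 1 read (0 of 86412 loci, 0%). At an unadjusted p under 0.05 there were 269 higher and 1155 lower loci in limma, but 2116 higher and 1151 lower in the quasi-likelihood test of edgeR, 2487 and 1534 in its likelihood ratio test, 2181 and 570 in DESeq2, and 5814 and 2651 in limma with a quality weight for each library. The median log2 fold change over the tested loci was -0.69 with all 9 libraries and 0.38 without TBT 5 and TBT 9, so that in limma its sign turned with these 2 libraries. With all 9 libraries it also turned with the test, at -0.15 in the quasi-likelihood test, -0.14 in the likelihood ratio test, 0.064 in DESeq2 and 0.25 with quality weights, and no direction is read from it. By place, the median with all 9 was -0.44 for exon loci, -0.75 for intron loci and 0.017 for loci outside genes. Single libraries moved the overall median by over 1.5 times in the case of TBT 5 (-0.25 without it) and TBT 9 (-0.39 without it). Scaling every library to the same total moved the median over all loci to -0.46, and median-ratio scaling moved it to -0.41, so single log2 fold changes are best read against these medians. The quasi-likelihood test also called 0 loci. The likelihood ratio test, which the study used, called 4 loci, all higher in TBT-F3 (0.00463%), DESeq2 called 12, and limma with quality weights called 31, most of them higher. Loci outside genes tested alone also gave 0 calls by limma (0 of 8221, 249 at an unadjusted p under 0.05).

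**Figure D2:**
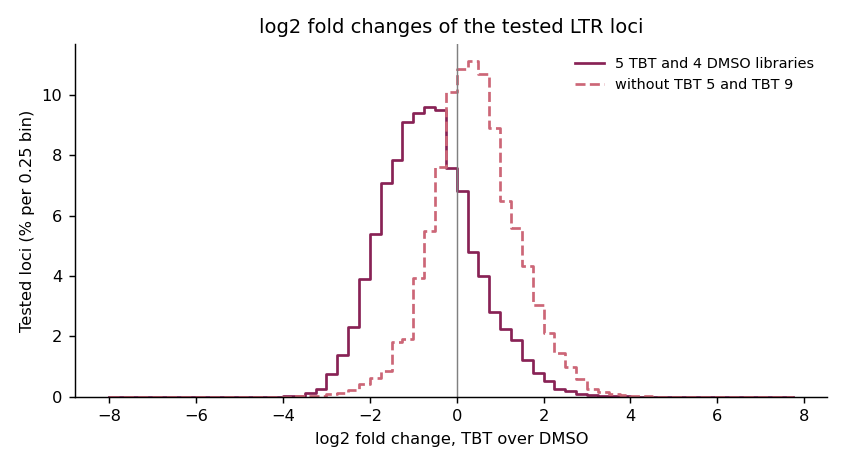
Percent of tested LTR loci in each 0.25 bin of the log2 fold change of TBT over DMSO from limma, with all 9 libraries (solid line) and without TBT 5 and TBT 9 (dashed line). The bulk of the loci lies below 0 with all 9 libraries (median -0.69) and above 0 without the 2 libraries (median 0.38).

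The 4 loci that the likelihood ratio test called had no read in any of the 4 P4 DMSO libraries. An RMER15 element, an LTR of the ERVL class, in an intron of the pseudogene Gm29231 at chr19:9609205-9609420 held 82, 67, 33, 27 and 66 reads in TBT 5 to 9. All 5 TBT libraries lay above all DMSO libraries, and the mean in TBT was at least 26.8-fold higher when each DMSO library is set to a floor of 3 reads, or at least 8.93-fold for TBT 6 to 8 alone (edgeR likelihood ratio test, adjusted p = 5.83e-05). In limma the same locus had a log2 fold change of 6.13 (SE 1.04) and an adjusted p of 0.870. An RMER19B element outside genes at chr19:47933842-47934656 held 36, 16, 10, 30 and 74 reads in TBT 5 to 9, or 17.3 CPM with an SD of 20.5 (n = 5) (adjusted p = 0.00276 by the likelihood ratio test and 0.870 by limma). Its groups did not overlap. An MLT2B1 fragment outside genes at chr1:149549143-149549331 held 137, 8, 18, 4 and 14 reads, at least 23.2-fold higher with all 5 libraries and at least 4.26-fold without TBT 5 (likelihood ratio test, adjusted p = 0.0183). TBT 5 held most of these reads, and without TBT 5 and TBT 9 the locus fell below the filter. The internal element RMER16-int at chr13:80262767-80264950, also outside genes, held 18, 67, 26, 36 and 0 reads, and its groups overlapped because TBT 9 had none (at least 8.05-fold higher, adjusted p = 0.0323 by the likelihood ratio test). Without TBT 5 and TBT 9 the likelihood ratio test gave adjusted p values of 2.06e-06, 0.00964 and 2.06e-06 for RMER15, RMER19B and RMER16-int, and limma gave 0.530 for each.

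The sequences of the called LTRs are given because the called difference rests on so few loci. The internal element RMER16-int is left out. They were read from the plus strand of GRCm38, and capitals mark the polyadenylation hexamer AATAAA, searched on both strands. RMER15 and MLT2B1 are whole, and of RMER19B the first 300 of 815 bases are shown.

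RMER15 chr19:9609205-9609420: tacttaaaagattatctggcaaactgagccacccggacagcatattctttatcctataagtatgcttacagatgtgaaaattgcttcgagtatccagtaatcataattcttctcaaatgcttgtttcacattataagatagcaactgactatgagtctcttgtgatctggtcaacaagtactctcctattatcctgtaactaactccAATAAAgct
RMER19B chr19:47933842-47934141: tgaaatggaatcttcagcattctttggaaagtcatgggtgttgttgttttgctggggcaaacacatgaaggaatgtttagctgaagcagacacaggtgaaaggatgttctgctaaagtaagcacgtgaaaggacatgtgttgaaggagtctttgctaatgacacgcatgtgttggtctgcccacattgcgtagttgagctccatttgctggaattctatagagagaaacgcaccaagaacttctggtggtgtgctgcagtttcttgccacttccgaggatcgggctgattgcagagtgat
MLT2B1 chr1:149549143-149549331: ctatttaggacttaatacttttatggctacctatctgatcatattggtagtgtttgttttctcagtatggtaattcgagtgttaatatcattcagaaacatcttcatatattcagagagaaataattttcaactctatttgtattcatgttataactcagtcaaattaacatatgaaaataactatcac

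AATAAA was present once in RMER15, near the end of the sequence shown, and these letters were not in the RMER19B and MLT2B1 windows. Among all LTR loci at least as long as RMER15, 27.8% held the hexamer on either strand within their first 216 bases.

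In P5 germline cells, sorted by the same scheme and counted in the same table, these loci did have reads in DMSO libraries. RMER15 held 2, 0, 26 and 11 reads in P5 DMSO 1 to 4 and 0, 36, 29, 77 and 24 in P5 TBT 5 to 9. RMER19B held 0, 0, 0 and 40 reads in P5 DMSO 1 to 4 and 0, 30, 29, 23 and 24 in P5 TBT 5 to 9. MLT2B1 held 68, 0, 18 and 2 reads in P5 DMSO 1 to 4 and 0, 5, 4, 8 and 18 in P5 TBT 5 to 9, and RMER16-int held 0, 0, 23 and 26 reads in P5 DMSO 1 to 4 and 0, 18, 31, 0 and 0 in P5 TBT 5 to 9. The loci thus had reads in other DMSO-F3 germline cells, and in P5 the groups overlapped at all 4. P5 TBT 5 held only 246520 LTR reads in all, and it had none at any of the 4 loci. In CPM, the P5 DMSO means of RMER15, RMER19B, MLT2B1 and RMER16-int were 1.78, 2.31, 9.11 and 2.30. The P5 TBT means were 10.3, 5.65, 2.07 and 1.88 CPM, so RMER15 and RMER19B were higher in TBT by mean in P5 too. The difference of the TBT effect between P4 and P5, tested by limma over 98076 loci, passed the threshold for none of them (adjusted p = 0.997 for each) and for 0 loci in all (0%), with 1364 loci at an unadjusted p under 0.05. For the species totals it passed for 0 of 662 (0%), with 2 at an unadjusted p under 0.05.

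**Figure D3:**
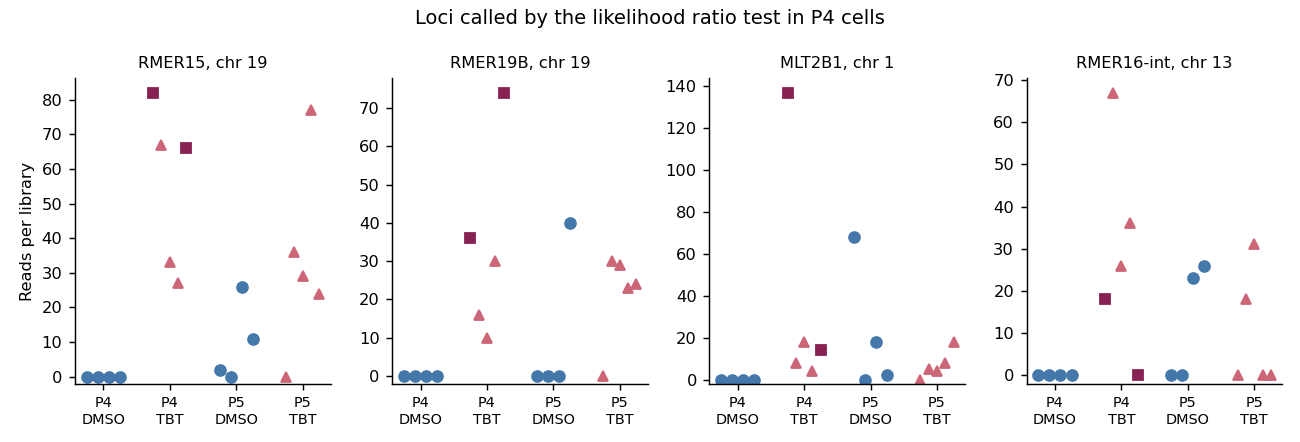
Reads per library at the 4 loci called by the likelihood ratio test in P4 cells, for P4 and P5 libraries of the DMSO group (circles) and of the TBT group (triangles; squares mark P4 TBT 5 and 9), with 1 panel for each locus. The P4 DMSO libraries are at 0 in all 4 panels, while P5 DMSO libraries reach 26, 40, 68 and 26 reads.

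Among the loci of higher mean whose groups did not overlap, those of smallest p differed in size by very different amounts, and by limma none passed the FDR (adjusted p = 0.870 for each named here). The next by p after RMER15 and RMER19B was another RMER19B element, which lies in an exon of Il6st at chr13:112507397-112508163, overlapping its annotated untranslated region, and Il6st encodes the shared signalling receptor of the interleukin 6 family. It held 0, 0, 2 and 6 reads in DMSO 1 to 4 and 93, 45, 36, 25 and 21 in TBT 5 to 9, with a log2 fold change of 4.64 (SE 1.09). An MTD element outside genes at chr2:170649521-170649857 held 1, 0, 0 and 0 reads in DMSO 1 to 4 and 26, 10, 10, 18 and 33 in TBT 5 to 9. Both were low in every DMSO library and highest in CPM in TBT 5 or TBT 9, and without these libraries their log2 fold changes were 3.87 and 3.28. Both passed limma with quality weights (adjusted p = 0.0295 and 0.0473) and DESeq2 (0.0205 and 0.0205), and the likelihood ratio test gave 0.0658 and 0.0647 with all 9 libraries and 0.0460 and 0.165 without TBT 5 and TBT 9. In the other direction, ORR1A1-int in an intron of Gm20388 at chr8:124093188-124093680 held 91, 21, 48 and 13 reads in DMSO 1 to 4 and 0, 0, 0, 5 and 0 in TBT 5 to 9, a log2 fold change of -4.87 (SE 1.07), and -4.58 without TBT 5 and TBT 9 (adjusted p = 0.00779 by the likelihood ratio test on these 7 libraries). With all 9 libraries it did not pass, with an adjusted p of 0.0761 by the likelihood ratio test, 0.137 by DESeq2 and 0.138 by limma with quality weights.

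The other lower loci were of another kind, with at least 337 CPM in every DMSO library and a smaller difference. They lay in introns of protein coding genes. MLT1J in Swi5, a homologous recombination gene, at chr2:32281869-32281987 had 589, 576, 371 and 337 CPM in DMSO 1 to 4 and 102, 203, 277, 279 and 141 CPM in TBT 5 to 9, a log2 fold change of -1.28 (SE 0.33). The MT2B fragment in Erh, whose product is a small nuclear protein, had 894, 777, 524 and 501 CPM in DMSO 1 to 4 and 319, 318, 451, 449.9 and 325 CPM in TBT 5 to 9 (log2 fold change -0.83, SE 0.23). For MLT1B in Psmb2, a proteasome subunit gene, at chr4:126684271-126684606 the values were 1140.2, 1058, 699 and 694 CPM in DMSO 1 to 4 and 390.1, 420.0, 672, 619 and 506 CPM in TBT 5 to 9 (log2 fold change -0.78, SE 0.21). For MERVL-int in Park7, an oxidative stress response gene, at chr4:150904431-150905087 they were 996, 906, 717 and 602 CPM in DMSO 1 to 4 and 173, 369, 583, 575 and 308 CPM in TBT 5 to 9 (log2 fold change -1.11, SE 0.31). At each of these 4 loci every TBT library lay below every DMSO library in CPM. With the same total in each library the log2 fold changes were -0.88, -0.42, -0.37 and -0.70, and the groups then overlapped at the Erh and Psmb2 loci, where 3 of 5 TBT libraries lay below all DMSO libraries. Without TBT 5 and TBT 9 the log2 fold changes were -0.86, -0.70, -0.65 and -0.66. MERVL-int is the internal sequence of an element known from early embryos, and a value inside a Park7 intron does not tell its transcripts from those of Park7.

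Counted over all tested loci, the 5 TBT libraries lay above the 4 DMSO libraries at 122 loci (0.141%) and below them at 1518 (1.76%). When TBT 5 and TBT 9 were left out, TBT 6 to 8 lay above the DMSO libraries at 6629 loci (7.67%) and below them at 2620 (3.03%), the opposite balance. Presence and absence of reads were counted in the same way. At 5273 loci the 4 DMSO libraries had no read while TBT 6, 7 and 8 each had one, and 45 of these also had a read in TBT 5 and TBT 9. The reverse, a read in each DMSO library and none in TBT 6 to 8, held at 66 loci, of which 43 had no read in any of the 5 TBT libraries. These counts were not matched for depth. TBT 6 to 8 were deeper than the DMSO libraries, and TBT 5 and TBT 9 had no read at 69.2% and 54.9% of the tested loci, which lowers any count that asks for a read in them. On the 7 libraries left without TBT 5 and TBT 9 limma called 0 loci (8562 at an unadjusted p under 0.05), and the likelihood ratio test called 106 of 92608 (0.114%), 68 higher and 38 lower. Of the 68 higher loci 61 had no read in any P4 DMSO library, 46 had none in TBT 5 and TBT 9, 35 lay outside genes, and they spread over 51 species, while 64 had a read in a P5 DMSO library. Of the 38 lower loci 28 lay outside genes, and they belonged to 32 species. Among all loci tested with the 9 libraries, 8221 of 86412 lay outside genes. The species counts and the count with a P5 DMSO read have no share over all tested loci beside them, and nothing is read from them.

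Summed over all loci of a species, no mERV species differed at an FDR of 0.05 between the groups (limma, 0 of 662 species, 0%, with 20 at an unadjusted p under 0.05; likelihood ratio test, 0 of 662, 0%, with 22). The quasi-likelihood test and DESeq2 also called 0, with 25 and 43 at an unadjusted p under 0.05. Of 35 species in a list that includes those the study names from these libraries, and so is not independent evidence of a direction, 33 had a negative and 2 a positive log2 fold change with all 9 libraries, with a median of -0.42 beside -0.41 over all 662 species. With every library scaled to the same total, 17 were positive and 18 negative with a median of -0.01, and without TBT 5 and TBT 9 there were 15 positive and 20 negative with a median of -0.03. Counted at loci outside genes only, with all 9 libraries and the deposited scaling, 12 were positive and 23 negative, with a median of -0.21 (range -1.74 to 1.28) beside -0.07 over the 574 species tested there.

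Among internal sequences of the ERVK class, which includes elements that still transpose in mice, MMERVK10C-int summed to 1523, 1229, 1129 and 986 CPM in DMSO 1 to 4 and 461, 924, 910.1, 1032 and 862 CPM in TBT 5 to 9, and its groups overlapped (log2 fold change -0.57, SE 0.27, and -0.33 without TBT 5 and TBT 9; adjusted p = 0.508 by limma). MMERVK9C_I-int summed to 1827, 2021, 1693 and 1685 CPM in DMSO 1 to 4 and 622, 1426, 1660.3, 1676 and 852 CPM in TBT 5 to 9, and IAPEz-int, the internal part of the intracisternal A particle, to 5038, 4429.7, 4239 and 4091 CPM in DMSO 1 to 4 and 1870.4, 4308, 4232, 4186 and 2831 CPM in TBT 5 to 9. In MMERVK9C_I-int every TBT library lay below every DMSO library, by little in TBT 7 and TBT 8, and the IAPEz-int groups overlapped. Of RLTR1B-int, an internal sequence of the ERV1 class, the totals were 839, 716, 818 and 772 CPM in DMSO 1 to 4 and 335, 709, 699, 714 and 353 CPM in TBT 5 to 9, with no overlap in CPM (log2 fold change -0.57 with all 9 and -0.15 without TBT 5 and TBT 9; adjusted p = 0.508 by limma). With the same total in each library the RLTR1B-int groups overlapped (log2 fold change -0.16), while those of MMERVK9C_I-int did not (-0.23). The LTR of one IAP type, IAPLTR2_Mm, summed to 2711, 2074, 1799 and 1602 CPM in DMSO 1 to 4 and 641, 1424, 1473, 1516 and 1758 CPM in TBT 5 to 9, with only TBT 9 within the DMSO range in CPM. As deposited CPM, the totals of TBT 5 and TBT 9 in this paragraph also carry the lower sums of these libraries given above. MERVL-int and its LTR MT2_Mm, known for activity in the early embryo, had 3044 CPM with an SD of 159.9 (n = 4) and 3562 CPM with an SD of 237 (n = 4) in the DMSO group, against 3396 CPM with an SD of 112 (n = 3) and 3940.2 CPM with an SD of 29.4 (n = 3) in TBT 6 to 8. In TBT 5 and TBT 9 MERVL-int stood at 628 and 1022 CPM. MERVL-int thus lay on opposite sides of the DMSO mean in TBT 6 to 8 and in TBT 5 and TBT 9.

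With a quality weight for each library, which gave TBT 5 and TBT 9 the lowest weights (0.067 and 0.090), limma called 20 species higher and 67 lower of the 662, and 4 of the 35 listed species were among them. MMERVK10C-int, RLTR44-int and IAPLTR2_Mm were lower in TBT-F3, with weighted log2 fold changes of -0.33, -0.44 and -0.46 (adjusted p = 0.0377, 0.0170 and 0.0109). RMER3D-int was higher at 0.33 (adjusted p = 0.0323), the opposite of its unweighted -0.56. Weights were estimated from the same libraries, and no unweighted limma test called any of the 4.

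In the 7 libraries other than TBT 5 and TBT 9, limma called 0 of 663 species (107 at an unadjusted p under 0.05), and the likelihood ratio test called 3, all lower in TBT-F3 and all LTRs of the ERVK class, named here after their values were seen. IAPEY5_LTR, of which 74.9% of P4 reads lay outside genes, held 242, 181, 278 and 150 reads in DMSO 1 to 4 and 56, 115, 92, 107 and 150 in TBT 5 to 9 (log2 fold change -1.50 without the 2 libraries, adjusted p = 0.00179 by the likelihood ratio test). RLTR45 summed to 809, 795, 605 and 617 CPM in DMSO 1 to 4 and 779, 452, 468, 515 and 1182 CPM in TBT 5 to 9 (log2 fold change -0.55, adjusted p = 0.00553 by the same test). IAPLTR2b, an LTR of an intracisternal A particle type, summed to 623, 518, 383 and 357 CPM in DMSO 1 to 4 and 415, 257, 288, 320.5 and 686 CPM in TBT 5 to 9 (log2 fold change -0.67, adjusted p = 0.0486). For all 3, TBT 6, 7 and 8 lay below every DMSO library in CPM, while TBT 5 lay within the DMSO range and TBT 9 above it. With the same total in each library TBT 6 to 8 were again below every DMSO library and TBT 5 and TBT 9 both above. With all 9 libraries their log2 fold changes were -0.89, -0.15 and -0.32 as deposited, and -0.49, 0.26 and 0.09 with the same total, and none passed.

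**Figure D4:**
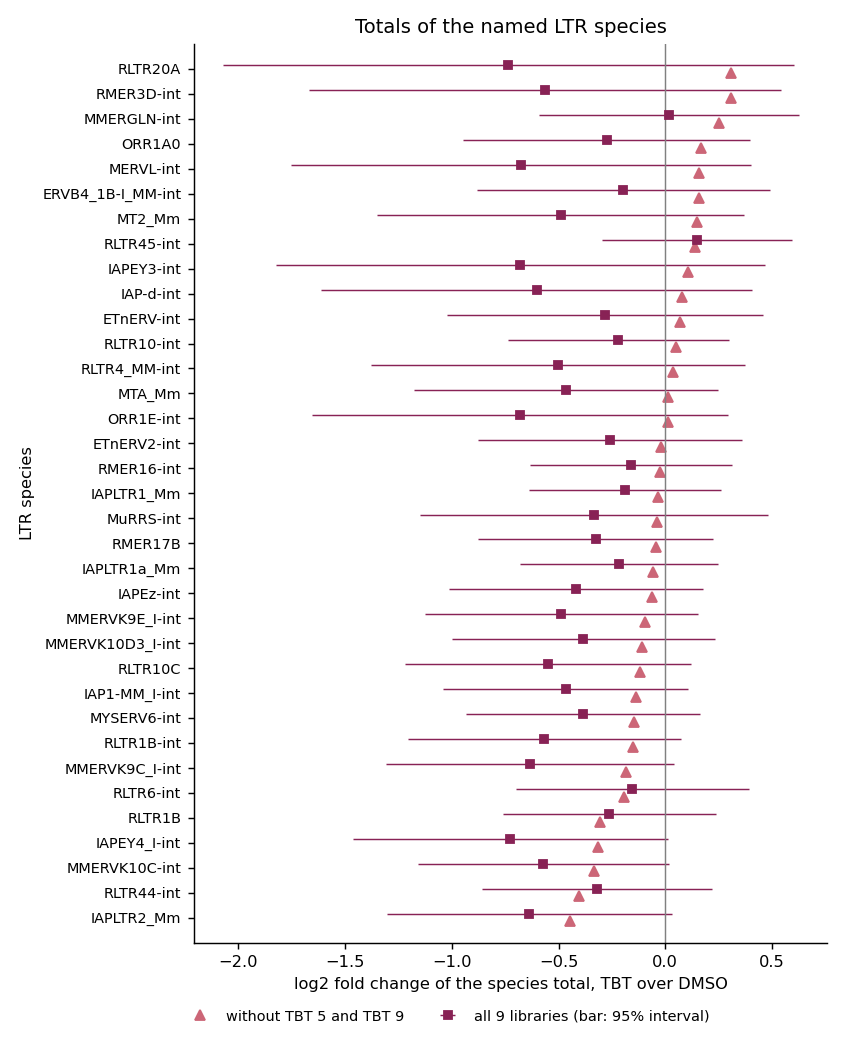
log2 fold changes of TBT over DMSO for the totals of 35 LTR species, with all 9 libraries (squares, with 95% intervals) and without TBT 5 and TBT 9 (triangles). The squares lie below 0 for 33 of the 35 species, and the triangles for 20.

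Of the other species, those of smallest p were the following, none of them past the FDR (limma, adjusted p = 0.508). RLTR13F summed to 454, 318, 431 and 211 CPM in DMSO 1 to 4 and 38.6, 184, 199, 211 and 122 CPM in TBT 5 to 9, a log2 fold change of -1.38 (SE 0.49) and of -0.78 without TBT 5 and TBT 9, and all 5 TBT libraries lay below all 4 DMSO libraries. The groups were equally separate for IAPLTR4_I, ERVB5_2-LTR_MM and RLTR26B_MM, with log2 fold changes of -2.87, -0.82 and -0.83 that remained negative without TBT 5 and TBT 9 (-2.11, -0.45 and -0.35) and with the same total in each library (-2.67, -0.41 and -0.42). IAPLTR4_I held only 13.3 CPM on average in the DMSO group. On the higher side, MER101B, an ancient LTR, summed to 2.83, 1.96, 0 and 6.31 CPM in DMSO 1 to 4 and 8.80, 12.3, 12.7, 6.06 and 12.9 CPM in TBT 5 to 9, with TBT 8 just under DMSO 4. The ancient internal sequences ERV3-16A3_I-int and MER34B-int summed in the DMSO group to 169 CPM with an SD of 36.2 (n = 4) and to 2653 CPM with an SD of 357 (n = 4). In the TBT group they summed to 232 CPM with an SD of 30.6 (n = 5) and to 4009.8 CPM with an SD of 1852 (n = 5). MER34B-int was high in TBT 5 and TBT 9 (4346 and 7116 CPM) and at 2862 CPM with an SD of 81.9 (n = 3) in TBT 6 to 8. For LTR45 the highest values were likewise those of TBT 5 and TBT 9, at 52.1 and 43.5 CPM.

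The species of the highest totals were MTD, MT2B, MTC, ORR1D1 and RLTR17B_Mm, which are LTRs. MTD summed to 81375 CPM with an SD of 4789.7 (n = 4) in DMSO and 80076 CPM with an SD of 2559 (n = 3) in TBT 6 to 8, a difference smaller than the spread between DMSO libraries, while TBT 5 and TBT 9 summed to 35531 and 49964 CPM. With the same total in each library the log2 fold change of MTD was 0.02 in place of -0.39, and those of the other 4 were -0.09, -0.05, -0.03 and 0.01. Per 1000000 LTR reads MTD stood at 62952 in TBT 5 and 61939 in TBT 9, beside 62058 to 63342 in DMSO, while MT2B stood at 45006 and 46065, beside 51675 to 53752. As shares of the reads of a library, which need no scaling between libraries, none of 30 families of related species passed with all 9 libraries (two-sided exact permutation test, smallest p = 0.127, where the smallest possible is 0.0159). Without TBT 5 and TBT 9, 11 of the 30 family shares did not overlap between TBT 6 to 8 and the DMSO libraries, each at the smallest p that 3 against 4 allow (0.0571, adjusted p = 0.156).

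The families with higher shares in TBT 6 to 8 were MLT1, ORR1D to ORR1G, RLTR11 and RLTR17, and RLTR20, of which MLT1 and ORR1 are ERVL-MaLR elements. The ORR1D to ORR1G share was 9.94% ± 0.222 (SD, n = 4) in DMSO and 10.3% ± 0.132 (SD, n = 3) in TBT 6 to 8. Those with lower shares included the IAP LTRs, MMERVK10 and RLTR10, RLTR1, RLTR44 and RLTR45, and 3 others. The share of IAP LTRs was 0.461% ± 0.0546 (SD, n = 4) in DMSO and 0.388% ± 0.0166 (SD, n = 3) in TBT 6 to 8, and that of MMERVK10 and RLTR10 was 0.711% ± 0.0799 (SD, n = 4) in DMSO and 0.605% ± 0.0194 (SD, n = 3) in TBT 6 to 8. In TBT 5 and TBT 9 the IAP LTR shares were 0.590% and 0.702%, above every other library. Over loci outside genes alone, 2 families had an unadjusted p under 0.05 with all 9 libraries, MMERVK10 and RLTR10 (4.97% in DMSO and 3.88% in TBT) and RLTR13, which was higher in TBT (1.33%), both at p = 0.0317 and an adjusted p of 0.433 by the exact permutation test. Without TBT 5 and TBT 9, 10 families did not overlap outside genes (p = 0.0571, adjusted p = 0.171, exact permutation test). The IAP LTR share was then 2.32% ± 0.471 (SD, n = 4) in DMSO and 1.06% ± 0.137 (SD, n = 3) in TBT 6 to 8, and the MERVL share was 0.525% ± 0.185 (SD, n = 4) in DMSO and 0.833% ± 0.15 (SD, n = 3) in TBT 6 to 8. These are 2 of the 10 families, and neither passed the FDR. The shares of TBT 5 and TBT 9 outside genes are not given here, so no direction is read for the TBT group.

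Most LTR reads lay in genes, so the loci inside each gene were summed to describe genes by name. These sums are not gene expression levels, and neighbouring loci of an intron can count the same reads, so they are compared between libraries and not between genes. Of 12325 genes tested by limma, 0 (0%) passed the FDR, with 235 at an unadjusted p under 0.05. The log2 fold change was positive in 33.6% of them with all 9 libraries and in 68.3% without TBT 5 and TBT 9, and the medians were -0.53 and 0.45. The likelihood ratio test called 9 genes (0.073%), 8 higher and 1 lower, and quality weights called 10. Without TBT 5 and TBT 9 the likelihood ratio test called 75 of 12433 (0.603%), 67 higher and 8 lower, and limma called 0 (1086 at an unadjusted p under 0.05).

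Cyp4x1, a cytochrome P450 gene, had no read in the P4 DMSO libraries and 22, 18, 132, 32 and 4 in TBT 5 to 9, so that every TBT library was above every DMSO library, at least 12.6-fold on average and at least 7.47-fold without TBT 7 (adjusted p = 0.00740 by the likelihood ratio test and 0.865 by limma). In P5 cells the DMSO libraries held 29, 54, 20 and 135 reads there. The noncoding RNA gene Gm28196 held 0, 1, 0 and 4 reads in DMSO 1 to 4 and 27, 56, 46, 76 and 20 in TBT 5 to 9, and Zfp40, a zinc finger gene, held 0, 0, 0 and 2 reads in DMSO 1 to 4 and 69, 11, 23, 20 and 62 in TBT 5 to 9. In P5 cells the DMSO libraries had 116, 124, 158 and 99 reads in Gm28196 and 44, 65, 57 and 35 in Zfp40. Both passed the likelihood ratio test (adjusted p = 0.0389 and 0.0492), and Zfp40 was highest in CPM in TBT 5 and TBT 9 and did not pass without them (adjusted p = 0.197). For Cyp4x1 and Gm28196 the test without these libraries gave 0.00115 and 0.0142. The called pseudogene Gm29231 had the reads of its RMER15 locus. Il6st held 0, 1, 2 and 16 reads in DMSO 1 to 4 and 93, 103, 65, 29 and 21 in TBT 5 to 9 and did not pass (adjusted p = 0.185 by the likelihood ratio test). The other called genes, named after their values were seen, were Chst7, Gm9655, Slc24a3 and 4930556G22Rik. Chst7, a chondroitin sulfate sulfotransferase gene, had no read in DMSO and 0, 102, 51, 51 and 19 in TBT 5 to 9, and Slc24a3, a sodium, potassium and calcium exchanger gene, had 0, 199, 33, 101 and 2. These genes were absent from the LTR reads of the DMSO libraries and present in TBT 6 to 8, with TBT 5 at 0 for both.

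In the other direction, Sult2a1, a sulfotransferase gene of steroids and bile acids, held 99, 30, 45 and 33 reads in DMSO 1 to 4 and 0, 6, 3, 3 and 0 in TBT 5 to 9, and it was the only gene called lower (likelihood ratio test, adjusted p = 0.0492; limma log2 fold change -4.58, SE 1.08, adjusted p = 0.865). The likelihood ratio test without TBT 5 and TBT 9 gave it an adjusted p of 0.00599. All 5 TBT libraries lay below all DMSO libraries, as in 1.57% of all genes tested. The histone gene Hist1h2bc held 62, 28, 82 and 14 reads in DMSO 1 to 4 and 0, 12, 1, 10 and 0 in TBT 5 to 9, again without overlap, but did not pass (adjusted p = 0.332 by the likelihood ratio test). Fkbp6, a cochaperone of the piRNA pathway in male germ cells, was among the genes with the most LTR reads, at 64024, 59336, 56629 and 49086 CPM in DMSO 1 to 4 and 24114, 34898, 48606, 49581 and 34464 CPM in TBT 5 to 9. Its log2 fold change was -0.62 (SE 0.19) with all 9 libraries and -0.38 without TBT 5 and TBT 9, and TBT 8 lay just above DMSO 4, so that the groups overlapped. With the same total in each library the log2 fold change of Fkbp6 was -0.21. On that scale 2 of 5 TBT libraries lay below all DMSO libraries, against 4 in CPM. Gm31983 and the circadian gene Arntl2 had log2 fold changes of -3.77 and -4.81 with all 9 libraries and -2.60 and -3.18 without TBT 5 and TBT 9, with 0 reads in TBT 5 and TBT 9, and in Arntl2 TBT 8 held 118 reads, within the DMSO range.

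For several germ cell identity genes, TBT 6 to 8 and TBT 5 and 9 lay on opposite sides of the DMSO group, and no gene of the list passed. Of 18 listed genes 9 were tested and 0 called by limma or the likelihood ratio test. Dazl, an RNA-binding protein gene of germ cells, had 601, 611, 543 and 672 CPM in DMSO 1 to 4 and 69.1, 735, 748, 694 and 153 CPM in TBT 5 to 9. Ddx4, the germ cell helicase gene, had 610.4, 971, 1543 and 1683 CPM in DMSO 1 to 4 and 79.9, 2195, 2075, 1859 and 323 CPM in TBT 5 to 9. In both, TBT 6, 7 and 8 were above all DMSO libraries and TBT 5 and TBT 9 below them. The log2 fold change of Dazl was -0.87 (SE 0.72) with all 9 and 0.26 without the 2 libraries, and that of Ddx4 was -0.59 (SE 0.91) and 0.87. Taf4b, a transcription cofactor of germ cells, shared the pattern, with 577, 327, 834 and 874 CPM in DMSO 1 to 4 and 0, 1931, 1437, 1305 and 21.7 CPM in TBT 5 to 9 (log2 fold change 1.33 without TBT 5 and TBT 9, adjusted p = 0.270 by the likelihood ratio test). By contrast, Mael, whose product acts in transposon silencing, stood at 5776 CPM with an SD of 356 (n = 4) in DMSO and 5625 CPM with an SD of 948 (n = 3) in TBT 6 to 8, and Pou5f1, a pluripotency gene, at 329.6 CPM with an SD of 101 (n = 4) and 269 CPM with an SD of 88.1 (n = 3), differences smaller than the SDs. In CPM, TBT 5 and TBT 9 lay below every DMSO library in 6 of the 9 tested genes, against 35.6% of all 12325 genes. TBT 6 to 8 lay above every DMSO library in 3 of the 9, against 8.56% of all genes.

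Of 28 genes of the piRNA pathway and retrovirus silencing, 23 were tested and 0 called by limma, by the likelihood ratio test with or without TBT 5 and TBT 9, or with quality weights. With all 9 libraries 5 were positive and 18 negative, with a median log2 fold change of -0.67 beside 33.6% positive and a median of -0.53 over all genes. In the 7 other libraries 15 of the 23 were positive, with a median of 0.60, beside 68.3% and 0.45. TBT 5 and TBT 9 lay below all DMSO libraries in CPM in 17 of the 23, beside 35.6% over all genes, and TBT 6 to 8 above all of them in 5, beside 8.56%. The CPM of TBT 5 and TBT 9 sum to less than those of the other libraries, and the count at equal totals is not given here. With the same total in each library, Morc1 had 0 TBT libraries below all DMSO libraries in place of 2, while Piwil2 and Tdrd9 still had 2. Piwil2, a PIWI protein gene, had 237, 216, 714 and 708 CPM in DMSO 1 to 4 and 0, 2134, 849.9, 894 and 34.0 CPM in TBT 5 to 9, and Piwil4, which directs DNA methylation of transposons, had 175, 245, 962 and 618 CPM in DMSO 1 to 4 and 0, 790.3, 639, 676 and 28.5 CPM in TBT 5 to 9. The Piwil2 values of TBT 6 to 8 were above all DMSO libraries, and those of Piwil4 lay within the DMSO range. Among the tudor domain genes, Tdrd1 had 34.2, 47.4, 153 and 152 CPM in DMSO 1 to 4 and 12.2, 359, 179.7, 162 and 19.7 CPM in TBT 5 to 9, and Tdrd5 had 102, 116, 314 and 293 CPM in DMSO 1 to 4 and 60.3, 559.6, 424, 377 and 70.0 CPM in TBT 5 to 9. Tdrd9 had 868, 734, 2069 and 1509 CPM in DMSO 1 to 4 and 154, 3102, 1607, 1915 and 195 CPM in TBT 5 to 9. In Tdrd1 and Tdrd5 all of TBT 6 to 8 were above the DMSO range, and in Tdrd9 only TBT 6 was. Leaving out TBT 5 and TBT 9, the log2 fold changes of Piwil2, Tdrd1, Tdrd5 and Tdrd9 were 1.55, 1.48, 1.30 and 0.84, with adjusted p values of 0.520, 0.753, 0.649 and 0.860 by the likelihood ratio test. Morc1, a transposon silencing ATPase gene, had 2588 CPM with an SD of 1513 (n = 4) in DMSO and 3095 CPM with an SD of 671 (n = 3) in TBT 6 to 8. Gtsf1, a piRNA cofactor, was not below the DMSO range in TBT 5 and TBT 9, at 1509 and 2848 CPM beside 1603 CPM with an SD of 713 (n = 4) in DMSO. Of the DNA methylation genes, Dnmt3l, the cofactor of de novo methylation in germ cells, had 147, 139.8, 193 and 136 CPM in DMSO 1 to 4 and 22.3, 105, 166, 148 and 7.47 CPM in TBT 5 to 9, with overlap between DMSO and TBT 6 to 8, and the Dnmt3a values of TBT 6 to 8 also lay within the DMSO range. Dnmt1, the maintenance methyltransferase gene, had 31.6, 30.8, 31.7 and 27.6 CPM in DMSO 1 to 4 and 24.4, 45.6, 19.7, 15.1 and 25.8 CPM in TBT 5 to 9, so that TBT 6 lay above the DMSO range and TBT 7 and TBT 8 below it.

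**Figure D5:**
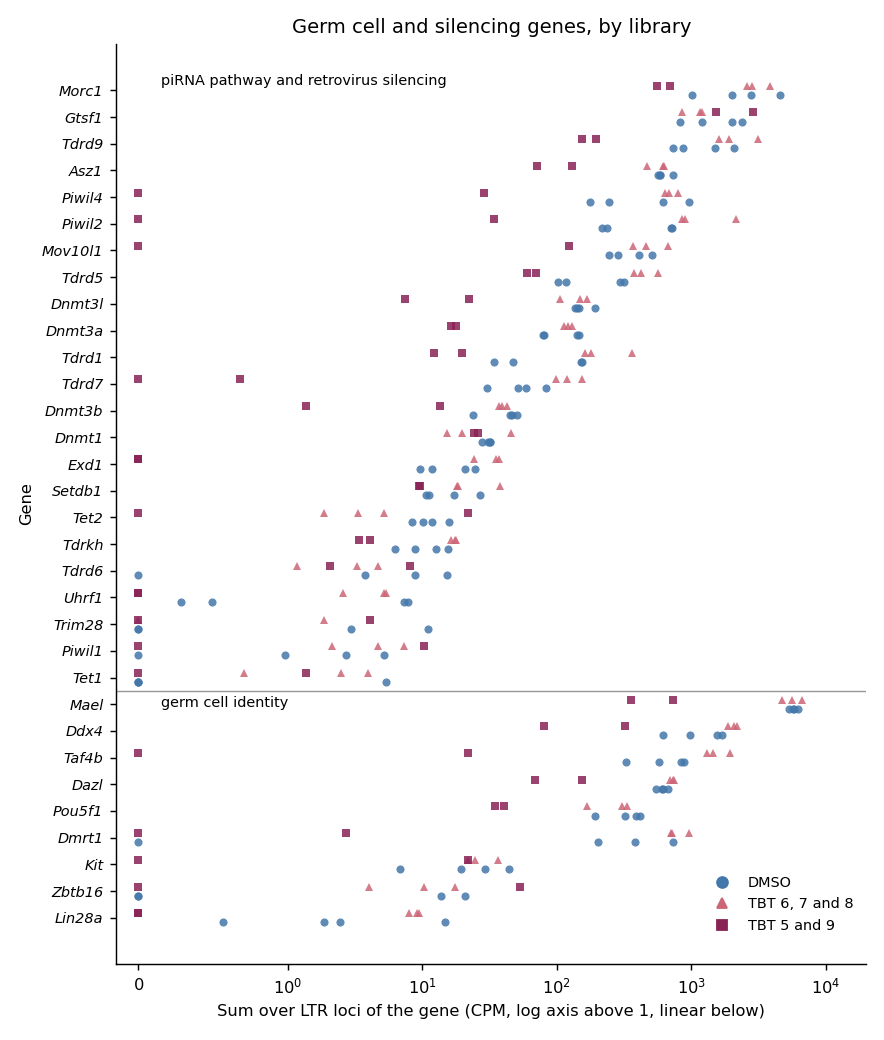
Sums over the LTR loci of the tested germ cell identity genes and piRNA pathway and retrovirus silencing genes in CPM, on an axis that is logarithmic above 1 and linear below, for DMSO (circles), TBT 6, 7 and 8 (triangles) and TBT 5 and 9 (squares), with 1 point for each library. TBT 5 and TBT 9 lie to the left of all DMSO libraries for Dazl, Ddx4, Mael and most silencing genes, while Gtsf1 does not follow them.

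For the nuclear receptors on which TBT acts and their cofactors, 10 of 12 genes were tested and 0 called by limma or the likelihood ratio test. Pparg, which encodes PPARγ, was below the filter. Rxra, a TBT receptor gene, held 25, 54, 169 and 123 reads in DMSO 1 to 4 and 6, 259, 120, 155 and 30 in TBT 5 to 9, and Rxrg, another, had 80.5, 56.7, 94.7 and 52.8 CPM in DMSO 1 to 4 and 4.06, 59.7, 93.4, 61.5 and 20.4 CPM in TBT 5 to 9. In both the DMSO range in CPM held at least 2 of TBT 6 to 8 and lay above TBT 5. Ppara, a receptor gene of fatty acid oxidation, had 71.2, 29.3, 29.0 and 61.9 CPM in DMSO 1 to 4 and 0, 63.2, 30.0, 11.4 and 0 CPM in TBT 5 to 9 (log2 fold change -3.39, SE 1.74, adjusted p = 0.865 by limma; -0.65 without TBT 5 and TBT 9), with no read in TBT 5 and TBT 9. The coactivator Ncoa2 had 18.7, 23.0, 3.94 and 20.8 CPM in DMSO 1 to 4 and 0, 69.2, 43.6, 56.6 and 6.11 CPM in TBT 5 to 9, and there TBT 6 to 8 were above every DMSO library (log2 fold change 1.99 without TBT 5 and TBT 9, adjusted p = 0.486 by the likelihood ratio test). In the 7 libraries other than TBT 5 and TBT 9, 7 of the 10 log2 fold changes were positive, with a median of 0.03, beside 68.3% and a median of 0.45 over all genes.

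Of 10 meiosis genes 7 were tested, and of 10 genes of endoplasmic reticulum chaperones and stress factors 5 were tested, and 0 of either list were called by limma or the likelihood ratio test. Sycp1, a synaptonemal complex gene, was above the DMSO range in TBT 5, TBT 8 and TBT 9, with 105, 115, 117 and 116 CPM in DMSO 1 to 4 and 288, 103, 89.1, 171 and 249 CPM in TBT 5 to 9. Hormad1, a chromosome axis gene, had 731, 770.1, 559 and 473 CPM in DMSO 1 to 4 and 309, 416, 554, 547 and 421 CPM in TBT 5 to 9, and Dmc1, a recombinase gene, had 29.1, 39.1, 63.9 and 37.4 CPM in DMSO 1 to 4 and 0, 44.9, 31.0, 57.5 and 0.679 CPM in TBT 5 to 9. The Hormad1 groups overlapped, and the Dmc1 value in TBT 5 was 0. Over the 7 meiosis genes the median log2 fold change was -0.50 with all 9 libraries and 0.04 without TBT 5 and TBT 9. Among the chaperone genes, Pdia3, a disulfide isomerase gene, had 146, 148, 120.3 and 150.0 CPM in DMSO 1 to 4 and 76.5, 163, 199.6, 185 and 20.4 CPM in TBT 5 to 9, with TBT 6 to 8 above every DMSO library, and Canx, the calnexin gene, had 1.41, 0.489, 6.64 and 10.3 CPM in DMSO 1 to 4 and 0, 9.29, 10.6, 10.7 and 0 CPM in TBT 5 to 9, with overlap. Hspa5, the main chaperone of the endoplasmic reticulum, had no read at an LTR locus. All 5 tested genes of the chaperone list were positive without TBT 5 and TBT 9, and 4 of the 5 were negative with them, beside 68.3% positive without them and 33.6% positive with them over all genes.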

How the data were processed

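The authors made cDNA from total RNA with an oligo(dT) primer, trimmed the reads with Trim Galore, aligned them to GRCm38 with STAR, and counted them at RepeatMasker LTR loci with a modified ERVmap. The deposited values are CPM after TMM scaling, a normalized signal. How reads matching several loci were counted is not given in the sources used here. Division by the lowest value above 0 in each library gave whole reads for all values (tolerance 0.01). The main test was limma 3.58.1 in R 4.3.3 on log2(value + 1 unit) with trended variance, at loci, species totals or gene sums with a mean of at least 5 units, at an FDR of 0.05 (Benjamini-Hochberg), so that fold changes of low loci are understated. Likelihood ratio and quasi-likelihood tests of edgeR 4.0.16 and DESeq2 1.42.0 used recovered reads. Genes came from GENCODE vM21. File starts count from 0 and are given counted from 1. Depth ranged from 833449 to 7216887 reads. Named loci were those called by limma or the likelihood ratio test with all 9 libraries, the 5 of highest mean and, among those of at least 20 units without overlap, the 5 of smallest p in each direction. Genes and species followed like rules. Members and lists were chosen with earlier results of these data known.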

Additional observations from a re-analysis of the deposited data

Results flagged for a closer look

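In 7 of 108 groups of 4 or 5 libraries examined (6.48%), 1 library lay far from the others by Dixon's criterion, which flags about 1 in 20 groups by chance. At the MLT2B1 locus on chromosome 1, TBT 5 stood at 92.8 CPM, against 0.932 to 9.51 CPM in the other TBT libraries. At the RMER19B locus in Il6st, TBT 5 stood at 63.0 CPM, against 5.82 to 14.3 CPM. At the MTD locus on chromosome 2, DMSO 1 stood at 0.283 CPM, which is 1 read, and at ORR1A1-int in Gm20388 TBT 8 stood at 1.16 CPM, while the other libraries of their groups were at 0. The RLTR44-int total in TBT 9 was 539 CPM, against 305 to 365 CPM. The ORR1A0 total in DMSO 4 was 2334 CPM, against 2103 to 2141 CPM, and the ETnERV-int total in DMSO 3 was 78.0 CPM, against 102 to 104 CPM.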

How the results depend on the processing

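The count of called loci was 0 under limma with pseudocounts of 0.25 and 4 units, without a filter, with a minimum mean of 20 units, with both other scalings, with each library left out in turn, and by the quasi-likelihood test. It was 4 with the likelihood ratio test, 12 with DESeq2 and 31 with quality weights. Chosen after seeing the data, leaving out TBT 5 and TBT 9 with the likelihood ratio test gave 106, and keeping 1 locus for each run of identical neighbours gave 4 with that test. For species totals, quality weights called 87 and the likelihood ratio test without TBT 5 and TBT 9 called 3. For gene sums, the likelihood ratio test called 9, quality weights 10, and the likelihood ratio test without TBT 5 and TBT 9 called 75. The median log2 fold change over loci turned from -0.69 to 0.38 without TBT 5 and TBT 9, to 0.43 with the same total as well, and to 0.017 over loci outside genes, and lay between -0.99 (without TBT 6) and -0.25 (without TBT 5) with each library left out in turn. RMER3D-int turned to 0.33 with quality weights. In the comparison of P4 with P5, replicate numbers paired the libraries weakly (7 of 9 pairs correlated above 0.1, from -0.09 to 0.46, and 2 of 9 correlated best with their own number). With the replicate number as a block, 0 loci and 0 species were called, with 6510 loci at an unadjusted p under 0.05 instead of 1364. With 2 of 5 TBT libraries at 833449 and 1187234 reads, low loci are poorly resolved in TBT-F3, and loci in introns share reads with their gene.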

Other observations

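Gene sums of low and of high level had different medians. In the 7 libraries other than TBT 5 and TBT 9 the median log2 fold change of gene sums was 0.82 in the lowest of 10 equal bins by mean level (1.23 to 2.31 CPM) and -0.02 in the highest (182 CPM and above), and 30.4% and 51.0% of the genes were negative. With all 9 libraries the medians were -0.13 and -0.82. TBT 6 to 8 also held reads at more loci at equal depth, and the part of this in the pattern was not tested.

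Core proteasome genes, named after Psmb2 was seen among the lower loci and so given as a description with no test of the group, lay on the lower side. Of 19 annotated Psma and Psmb genes 12 had enough LTR reads. The log2 fold change was negative in 12 of 12 with all 9 libraries (median -0.79) and in 11 of 12 without TBT 5 and TBT 9 (median -0.55, and -0.50 with the same total in each library), where the median over all genes was 0.45. In the highest of the 10 bins the medians were -0.82 and -0.02, and 90.6% and 51.0% of the genes were negative, so the negative direction with all 9 libraries was common among genes of high level. Limma and the likelihood ratio test called 0 of them, with 4 at an unadjusted p under 0.05 in limma. Psma2 had 906, 821, 578 and 587 CPM in DMSO 1 to 4 and 261, 375, 543, 540.1 and 247 CPM in TBT 5 to 9, and Psma6 had 816, 813, 564 and 587 CPM in DMSO 1 to 4 and 327, 383, 525, 535 and 467 CPM in TBT 5 to 9, and these 2 of the 12 had no overlap between the groups in CPM, beside 1.57% of all genes. With the same total in each library their log2 fold changes were -0.52 and -0.23, and the groups overlapped in both, while Psma5, whose groups overlapped in CPM, had none on that scale (log2 fold change -0.61). Psmb1, the proteasome gene with the most LTR reads here, had 17224, 16063, 11656 and 10572 CPM in DMSO 1 to 4 and 5140.0, 7273, 10722, 10042 and 8601 CPM in TBT 5 to 9.

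Among the genes that the likelihood ratio test called without TBT 5 and TBT 9, the smallest adjusted p values belonged to Ano2, a calcium-activated chloride channel gene, with 0, 0, 0 and 2 reads in DMSO 1 to 4 and 0, 790, 89, 425 and 0 in TBT 5 to 9, and to Hunk, a kinase gene, with 0, 0, 0 and 0 reads in DMSO 1 to 4 and 0, 140, 91, 72 and 0 in TBT 5 to 9. Kdm4c, a histone demethylase gene, differed from these in having reads in every DMSO library, with 38, 25, 39 and 50 reads in DMSO 1 to 4 and 2, 506, 401, 303 and 12 in TBT 5 to 9. In each, TBT 5 and TBT 9 fell at or below the DMSO libraries while TBT 6 to 8 lay above them.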
